A study of Mus musculus with 4 samples.

Results

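The interferon-inducible guanylate-binding proteins (GBPs) and immunity-related GTPases (IRGs) were followed in macrophages sorted from tumours grown under the skin of FVB mice. The list held 10 genes, chosen by name: Gbp2, Gbp3, Gbp4, Gbp5, Gbp7, Gbp8, Gbp9, Igtp, Irgm1 and Irgm2. Of these, 9 were matched by symbol among the 39179 gene identifiers counted; Gbp5 matched none, so its expression is not analysed here and it enters through its promoter sequence alone. The tumours came from MycCaP, a mouse prostate cancer cell line driven by MYC, or from MycCaP-BMP4, the same line overexpressing the secreted bone morphogenetic protein BMP4, and each group had 2 libraries. The labels give the same sort for both groups (positive for CD45, CD11b and F4/80, negative for GR1), although F4/80 stands in the titles of the MycCaP-BMP4 samples alone. Whether each sample was a separate mouse, and whether the overexpressing line was 1 clone, is not stated in them, so the p-values rest on a spread among libraries that may be technical.

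GBPs are large GTPases of the dynamin superfamily, and IRGs are a smaller family of related function. Both are transcribed strongly when interferon-gamma signals through its receptor, and to a lesser degree in response to type I interferon. They act inside macrophages: they gather on the vacuoles that hold bacteria or protozoa, break them open, and help to set off inflammasomes. Igtp, Irgm1 and Irgm2 belong to the regulatory branch of the IRGs, which stays on the cell's own membranes and holds the effector IRGs inactive there.

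The libraries held 23058263 to 24967143 counts in genes, and levels are given as CPM, counts per 1000000 gene counts. The floor of 3 counts, which reflects counting error alone, lay at 0.120 to 0.130 CPM before further scaling. Bmp4 had 4 and 1 counts in MycCaP replicates 1 and 2 and 14136 and 4138 counts in MycCaP-BMP4 replicates 1 and 2. The level of macrophage genes differed between the libraries. The median of 15 pan-macrophage genes relative to the MycCaP mean was 19.1% for MycCaP-BMP4 replicate 1 and 78.0% for replicate 2, and the F4/80 gene Adgre1 stood at 863 and 919 CPM in MycCaP against 146 and 638 CPM in MycCaP-BMP4. Summed tumour epithelial markers had 242 and 273 CPM against 1240.1 and 493 CPM (Esrp1 was at 0 in all libraries). In bulk RNA, fewer macrophages in the sort and less GTPase mRNA per macrophage cannot be told apart. All values below are given for replicates 1 and 2 in that order, MycCaP first, and CPM values carry TMM factors (a scaling for library composition).

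For all 9 measured GTPases the MycCaP-BMP4 libraries lay below the MycCaP libraries with no overlap, a pattern seen for 29.7% of the 14075 genes tested. Together they made up 539 and 567 CPM in MycCaP and 92.8 and 215 CPM in MycCaP-BMP4. The median log2 fold change of the 9 was -1.82, against -0.03 for all genes tested. Scaled instead on the pan-macrophage genes, 7 of the 9 log2 fold changes were negative and those of Irgm1 and Irgm2 positive, with a median of -0.65 for the 9 and 1.65 for all genes. With that scaling 0 of the 9 had an unadjusted p under 0.05 (edgeR adjusted p from 0.218 to 0.973). None of the 9 passed the test across all genes at an adjusted p under 0.05 (edgeR's quasi-likelihood fit, Benjamini-Hochberg adjusted p from 0.0871 to 0.206), where 0.0% of all genes were called lower. At an unadjusted p under 0.05, 9 of 9 lay lower, against 6.76% of all genes. DESeq2 called 7 of the 9 lower, all but Irgm1 and Irgm2, against 3.01% of all genes, and limma-voom called 0 of the 9, with 9 at an unadjusted p under 0.05, as were 2743 of the 14075 genes in either direction.

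**Figure D1:**
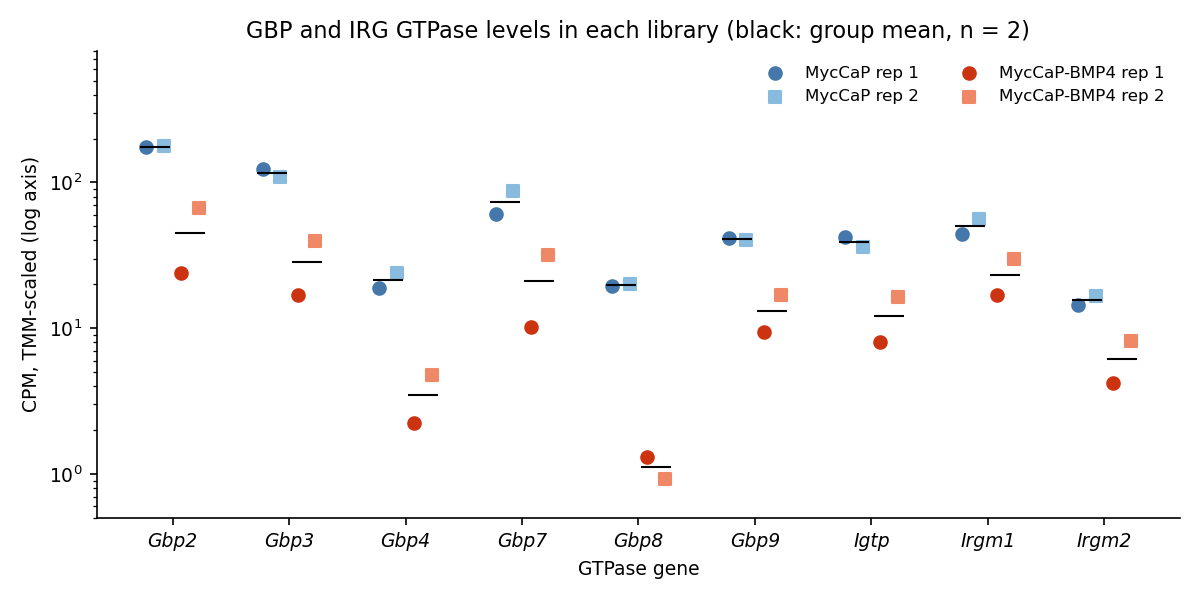
CPM with TMM scaling (log axis) of each measured GBP and IRG gene in the 4 libraries; points are single libraries and black dashes are group means (n = 2). Every red point lies below both blue points of its gene, and Gbp8 is the gene whose MycCaP-BMP4 libraries lie near 1 CPM.

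Per length of exon, Gbp2 was the most abundant of the 9, at 69.5 and 70.5 RPKM (CPM per kilobase of exon) in MycCaP. Gbp3 followed at 37.6 and 33.5 RPKM, then Igtp at 20.8 and 17.9 RPKM and Gbp7 at 10.8 and 15.5 RPKM, and these 4 did not overlap one another. Irgm1, at 7.65 and 9.69 RPKM, overlapped Gbp9, at 8.04 and 7.75 RPKM. Gbp8 (5.65 and 5.88 RPKM), Irgm2 (3.92 and 4.52 RPKM) and Gbp4 (2.503 and 3.19 RPKM) came last, in that order and without overlap. In MycCaP-BMP4 the lowest place passed from Gbp4, now at 0.299 and 0.633 RPKM, to Gbp8, at 0.378 and 0.268 RPKM, although these 2 genes overlapped.

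The GBP genes lie in 2 clusters. On GRCm38, Gbp7 (chr3:142530342-142550149), Gbp3 (chr3:142560026-142573209) and Gbp2 (chr3:142620602-142638008), all on the plus strand and protein-coding, share chromosome 3 with Gbp5, while Gbp8 (chr5:105014150-105139540), Gbp9 (chr5:105077630-105139539) and Gbp4 (chr5:105115767-105139586) lie on the minus strand of chromosome 5. The chromosome 5 models overlap in exons in GENCODE M21, and 8.04% of the distinct 75-base words of Gbp8 transcripts, 3.08% of those of Gbp4 and 3.61% of those of Gbp9 also occur in transcripts of other genes. For Gbp7 the share was 11.3%, for Gbp3 2.06% and for Gbp2 0.955%. The deposited files list ambiguous and not uniquely placed reads apart from the genes, so the levels of these paralogs may leave out reads from the shared stretches.

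The promoters of 7 of the 10 genes were matched in RefSeq (GRCm38.p6; Gbp4, Gbp8 and Gbp9 were not matched). Each window runs from 250 bases before a transcription start to 50 bases after it. They were searched on both strands for the core of the interferon-stimulated response element (ISRE), which IRF factors bind, written as GAAA, any 2 bases and GAAA, and for the gamma-activated site (GAS) of the interferon-gamma response, TTCNNNGAA. These motifs are shown because both interferon pathways act through them. All 7 genes held an ISRE core, in 7 of 8 windows (Gbp3 has 2 starts), where 3.44% of all 32851 windows did. A GAS match was found in 4 of the 8 windows, those of Gbp5, Gbp7, Igtp and Irgm2, where 8.3% of all windows had one. A match is a description of the letters and not a measured binding site, and overlapping matches were counted singly.

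For the GBP genes, the upstream stretches of Gbp7 (chr3:142530206-142530335) and Gbp3 (chr3:142559914-142560025) and a 30-base site of Gbp2 (chr3:142620594-142620623) are given 5′ to 3′ on the plus strand, with ISRE core and GAS matches in capitals. The Gbp2 site reaches 22 bases into an exon of the GENCODE model. In Gbp3 the 2 ISRE cores overlap and read as 1 run of capitals.
Gbp7: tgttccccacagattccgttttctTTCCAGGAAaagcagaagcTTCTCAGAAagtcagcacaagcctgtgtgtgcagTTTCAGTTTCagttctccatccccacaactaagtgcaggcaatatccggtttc
Gbp3: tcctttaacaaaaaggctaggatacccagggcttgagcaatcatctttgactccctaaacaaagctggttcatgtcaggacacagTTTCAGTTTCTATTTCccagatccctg
Gbp2: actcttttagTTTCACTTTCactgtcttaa

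**Figure D2:**
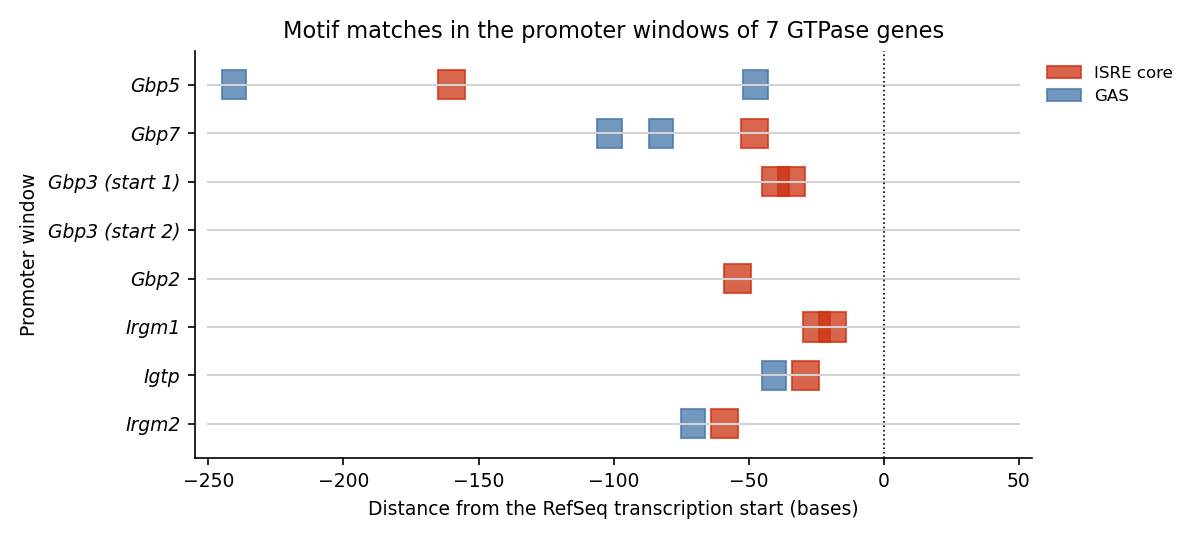
Positions of ISRE core (red) and GAS (blue) matches in the 8 RefSeq promoter windows of 7 GTPase genes; the x axis is the distance in bases from the transcription start (dotted line). Every gene shows a red block before its start, and only the second start of Gbp3 has no match.

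Gbp2, a prenylated GBP that attacks the vacuole of Toxoplasma, had 175 and 177 CPM in MycCaP and 23.8 and 66.3 CPM in MycCaP-BMP4. The group means were 176 ± 1.86 and 45.05 ± 30.04 CPM (SD, n = 2), so the MycCaP pair was tight and the MycCaP-BMP4 pair was wide. This gave a log2 fold change of -1.97 ± 0.51 (SE; edgeR adjusted p = 0.155). Gbp3 had 123 and 109 CPM against 16.9 and 39.8 CPM, a log2 fold change of -2.03 ± 0.45. Both genes stood at about the same part of their MycCaP mean, 13.5% and 37.6% for Gbp2 and 14.5% and 34.3% for Gbp3.

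Gbp7, which in macrophages is known for bringing the NADPH oxidase to bacterial vacuoles, had 60.8 and 86.7 CPM in MycCaP and 10.1 and 31.8 CPM in MycCaP-BMP4. Its MycCaP libraries differed more from each other than those of the other members, with a group mean of 73.8 ± 18.4 CPM (SD, n = 2), and MycCaP-BMP4 replicate 2 stood at 3.14 times replicate 1. Its log2 fold change was -1.82 ± 0.56 (edgeR adjusted p = 0.195).

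On chromosome 5, Gbp8 stood apart from its neighbours. It had 445 and 480 counts (19.5 and 20.3 CPM) in MycCaP and 36 and 21 counts (1.30 and 0.922 CPM) in MycCaP-BMP4, or 6.56% and 4.64% of the MycCaP mean. Group means were 19.9 ± 0.564 and 1.11 ± 0.269 CPM (SD, n = 2), and the groups lay far apart. Gbp8 was the 1 member of the 9 that was lower in MycCaP-BMP4 replicate 2 than in replicate 1; the other 8 were 1.78 to 3.14 times higher in replicate 2. The log2 fold change of Gbp8 was -4.15 ± 0.40, the lowest of the 9, with an adjusted p of 0.0871 by edgeR. Gbp4 had 18.8 and 23.9 CPM against 2.24 and 4.74 CPM, a log2 fold change of -2.61 ± 0.47 (edgeR adjusted p = 0.124). Gbp9 had 41.6 and 40.1 CPM against 9.44 and 16.9 CPM, a log2 fold change of -1.63 ± 0.36. The 3 genes share a cluster, yet their MycCaP-BMP4 levels ranged from 4.64% (Gbp8) to 41.5% (Gbp9) of the MycCaP mean in replicate 2.

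The 3 IRG genes lie on chromosome 11, Irgm1 at chr11:48861968-48871683 on the minus strand. Igtp (chr11:58199556-58207591) and Irgm2 (chr11:58199618-58222782) are on the plus strand, and the Igtp model lies almost wholly within the Irgm2 model. The RPKM of Irgm2 rests on the exon length of this wide model. The RefSeq start used for the Irgm2 promoter lies inside it. Igtp and Irgm2 overlap in exons in GENCODE M21, and 7.80% of the 75-base words of Igtp and 4.78% of those of Irgm2 occur in other genes, against 0% for Irgm1. The upstream stretches of Igtp (chr11:58199426-58199555, plus strand) and Irgm2 (chr11:58214847-58214976, plus strand) and a 30-base site of Irgm1 (chr11:48871428-48871457, minus strand, inside an exon of one GENCODE model) are given 5′ to 3′ along each gene, because they show the ISRE core next to a GAS in one pair and alone in the third. Capitals mark the same matches as above.
Igtp: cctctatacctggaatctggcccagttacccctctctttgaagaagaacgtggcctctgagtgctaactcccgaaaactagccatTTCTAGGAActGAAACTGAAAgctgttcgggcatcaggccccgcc
Irgm2: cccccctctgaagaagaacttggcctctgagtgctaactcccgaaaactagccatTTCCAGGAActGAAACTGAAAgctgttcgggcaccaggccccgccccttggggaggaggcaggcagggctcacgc
Irgm1: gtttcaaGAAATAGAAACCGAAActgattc

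Irgm1, which guards host membranes and mitochondria and is needed for macrophages to survive interferon-gamma activation, had 44.5 and 56.3 CPM in MycCaP and 16.8 and 29.9 CPM in MycCaP-BMP4. This was the smallest difference of the 9, at 33.3% and 59.2% of the MycCaP mean and a log2 fold change of -1.11 ± 0.36 (edgeR adjusted p = 0.201). Irgm2, which also limits activation of the non-canonical inflammasome, had 14.5 and 16.7 CPM against 4.20 and 8.17 CPM, a log2 fold change of -1.33 ± 0.44 (edgeR adjusted p = 0.206). Igtp, the gene of the regulatory protein IRGM3 of lipid droplets and endoplasmic reticulum, had 42.0 and 36.2 CPM against 8.03 and 16.3 CPM, a log2 fold change of -1.69 ± 0.40. Scaled on the pan-macrophage genes, Irgm1 had 0.32 and Irgm2 0.0566, and Igtp -0.31 (log2).

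The make-up of the GTPase counts also differed between the groups, and this does not depend on the scaling of the libraries. As a share of the counts of the 9 genes, Irgm1 made up 8.25% and 9.93% in MycCaP and 18.1% and 13.9% in MycCaP-BMP4. Its 95% Wilson intervals, which cover counting error only, ran up to 10.5% in MycCaP and from 13.0% in MycCaP-BMP4. The 3 IRG genes together made up 18.7% and 19.3% against 31.3% and 25.3%. In the other direction, Gbp8 made up 3.61% and 3.57% against 1.40% and 0.429%, and Gbp4 made up 3.48% and 4.21% against 2.42% and 2.21%. Shares were lower in both MycCaP-BMP4 libraries for 4 genes (Gbp2, Gbp3, Gbp4 and Gbp8), higher for 3 (Gbp9, Irgm1 and Irgm2) and overlapping for 2 (Gbp7 and Igtp). For Gbp2, Gbp3 and Gbp9 the Wilson intervals of the nearest libraries of the 2 groups overlapped, so these 3 did not separate beyond counting error. These are descriptions: with 2 libraries against 2, an exact permutation test cannot go below p = 0.333 (two-sided).

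**Figure D3:**
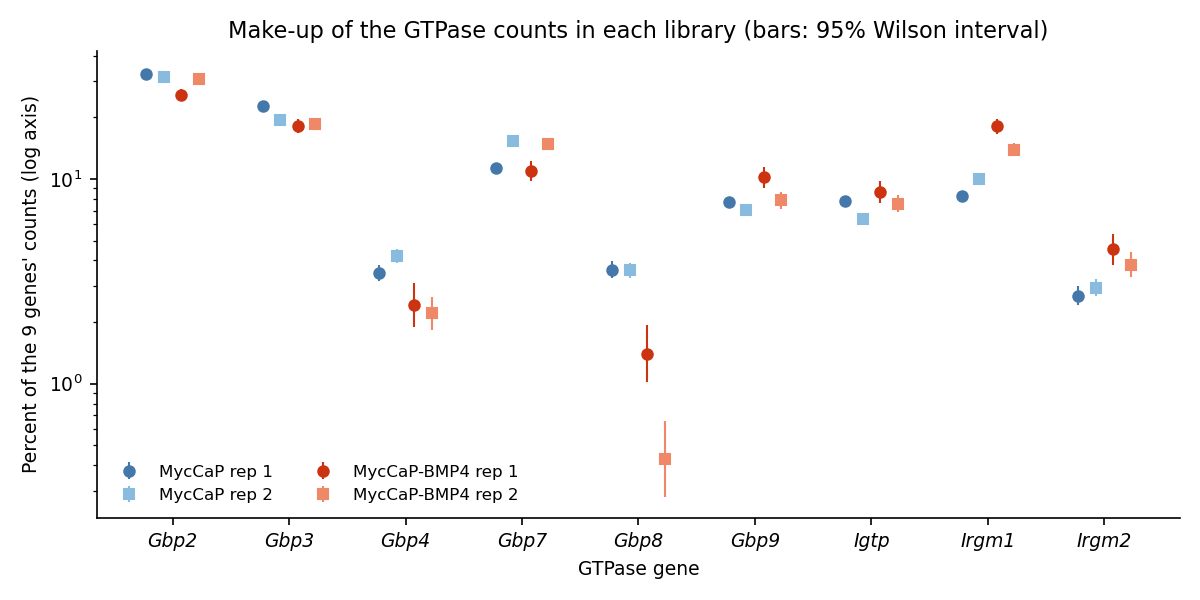
Share of the counts of the 9 measured GTPase genes taken by each gene (percent, log axis) in the 4 libraries; bars are 95% Wilson intervals. Gbp8 takes 1.40% and 0.429% in the MycCaP-BMP4 libraries, while Irgm1 takes 18.1% and 13.9%.

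Set beside the pan-macrophage genes, the GTPases differed by library. In MycCaP-BMP4 replicate 2, where the macrophage median was 78.0% of the MycCaP mean, all 9 lay below it, from 4.64% for Gbp8 to 59.2% for Irgm1, with a median of 41.5%. In replicate 1, with the macrophage median at 19.1%, Gbp2, Gbp3, Gbp4, Gbp7 and Gbp8 lay below it, and Gbp9, Igtp, Irgm1 and Irgm2 lay above it, at 20.6% to 33.3%. Thus 5 of the 9 were below the macrophage median in both libraries, and 5.31% of all genes were. That share is no measure for genes expressed in macrophages. A median has about as many of its own genes below it as above it. How many of the 15 pan-macrophage genes lay below it in both libraries was not counted. The GTPase median minus the macrophage median was -0.39 on the log2 scale in replicate 1 and -0.91 in replicate 2. The part of the macrophage share in the lower GTPase levels was not tested.

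**Figure D4:**
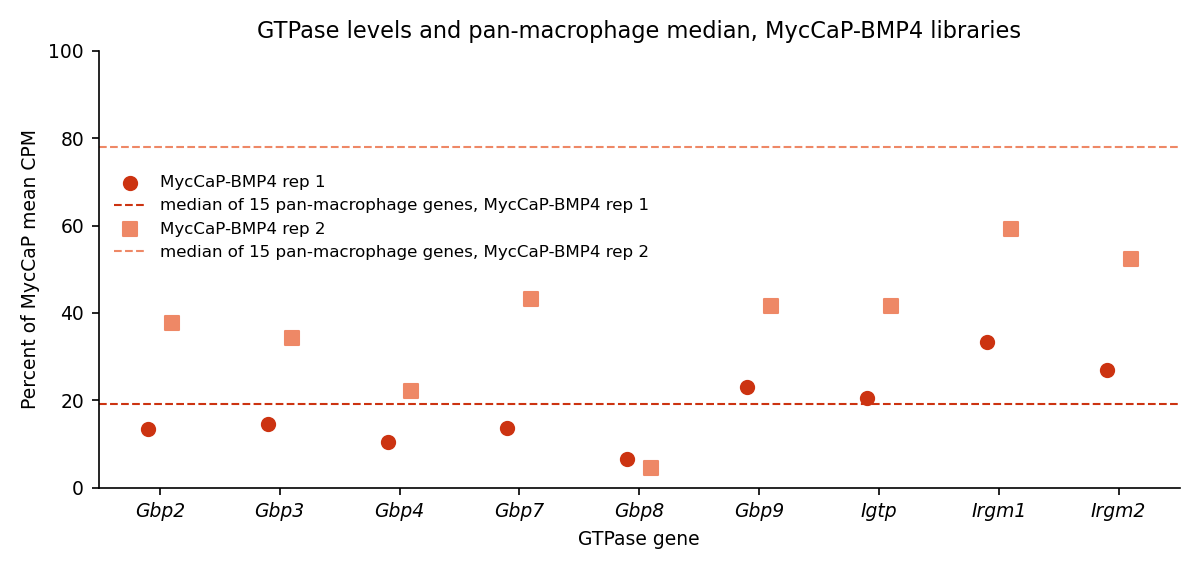
Level of each measured GTPase gene in the 2 MycCaP-BMP4 libraries as a percent of the MycCaP mean CPM; dashed lines are the medians of 15 pan-macrophage genes in the same libraries. All 9 replicate 2 points lie under their line at 78.0%, and 5 of the 9 replicate 1 points lie under theirs at 19.1%.

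The other interferon-inducible GTPases were low as well. Of 18 on that list, 16 were in the files and 14 tested: 13 lay lower without overlap (29.7% of all genes did), Gvin1 overlapped, 0 passed and 9 had an unadjusted p under 0.05, all lower (6.76% of all genes). Their median log2 fold change was -1.81. Gbp2b, which sits between Gbp3 and Gbp2, was low too, with 37.0 and 40.1 CPM in MycCaP and 7.997 and 16.02 CPM in MycCaP-BMP4. The effector IRG genes Iigp1 (53.4 and 47.0 CPM against 7.31 and 19.9 CPM) and Ifi47 (52.6 and 47.3 CPM against 8.94 and 22.1 CPM) lay between Gbp2 and Igtp in their fold change, at -1.88 ± 0.50 and -1.69 ± 0.46. Gm12250, which encodes the effector IRGB10 that exposes bacterial ligands to inflammasomes, had 12.9 and 11.2 CPM against 2.06 and 3.03 CPM. The antiviral GTPase genes Mx1 and Mx2, which respond to type I interferon, had log2 fold changes of -1.87 and -1.81. Tgtp2 had 84 and 233 counts against 23 and 69, but shares 81.4% of its 75-base words with other genes, so its counts cannot be assigned with confidence, and the same holds for Tgtp1 (77.2%). The remaining tested genes, Gm4951, Gm5431, Gm4070, F830016B08Rik, 9930111J21Rik1 and 9930111J21Rik2, had log2 fold changes from -2.47 (F830016B08Rik) to -1.20 (Gm5431). Gbp11 had at most 2 counts in any library.

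The relatives of these GTPases that were listed as not induced by interferon were not low. Which cells of the sort these transcripts came from was not tested. Of 8 tested atlastin, dynamin and IRG-like genes, none was lower without overlap, 3 lay higher, where 28.9% of all genes did, and 0 passed; the median log2 fold change was 0.25. Atl2, an atlastin that fuses endoplasmic reticulum membranes, had 49.7 and 53.8 CPM against 103 and 75.9 CPM. The groups overlapped for the IRG-like gene Irgq, at 18.2 and 22.1 CPM against 13.9 and 18.8 CPM.

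The transcript of the ligand, interferon-gamma, was low in MycCaP, at 1.79 and 1.90 CPM, and nearly absent from MycCaP-BMP4. The libraries are of cells sorted as macrophages, so they do not measure the interferon-gamma present in the tumours. Which cells of the sort the transcript came from was not tested. Ifng, which encodes interferon-gamma, had 41 and 45 counts in MycCaP and 0 and 1 counts in MycCaP-BMP4; 0 counts allow up to 0.123 CPM before TMM scaling, by counting error alone. Of the 13 genes for the ligand, its receptor and its signalling, 9 lay lower without overlap (29.7% of all genes did), 0 higher, and 0 passed, with 4 lower at an unadjusted p under 0.05 (6.76% of all genes) and a median log2 fold change of -0.95. In MycCaP-BMP4 the median of this list stood at 28.5% and 79.0% of the MycCaP mean. The pan-macrophage median stood at 19.1% and 78.0%, so this list did not lie below it in either library. The receptor genes Ifngr1 (194 and 226 CPM against 73.3 and 138 CPM) and Ifngr2 (141 and 135 CPM against 34.3 and 109 CPM) had log2 fold changes of -0.99 ± 0.38 and -0.95 ± 0.54. The kinase genes Jak1 and Jak2, which are attached to the receptor, had -0.48 ± 0.38 and -0.09 ± 0.26. Irf1, which binds the ISRE of GBP promoters, had 300.1 and 245 CPM against 73.9 and 147 CPM, and Irf8, a macrophage-lineage factor of the same family, had 238 and 233 CPM against 40.6 and 146 CPM.

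T and NK cells are the main makers of interferon-gamma, and their genes were low as well. Of 22 T and NK genes, Ifng among them, 20 lay lower without overlap and 0 higher, against 29.7% and 28.9% of all genes, and none was at 0 in all 4 libraries. Their summed level was 160.05 and 150.2 CPM in MycCaP and 24.5 and 65.3 CPM in MycCaP-BMP4. The median of the list stood at 11.1% and 18.7% of the MycCaP mean, below the GTPase medians of 14.5% and 41.5%. Dendritic cell genes had list medians of 20.8% and 49.7%, and B and plasma cell genes of 28.9% and 59.2%. The part of these cells in the GTPase levels was not tested.

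Genes of type I interferon signalling had 8 of 11 lower without overlap, against 29.7% of all genes, 0 higher and 0 passing, and their median log2 fold change was -1.004. In MycCaP-BMP4 the median of this list stood at 35.0% and 74.2% of the MycCaP mean, beside 19.1% and 78.0% for the pan-macrophage genes. Irf7, which amplifies interferon production, had -2.21 ± 0.43, and Usp18, a negative regulator induced by interferon, had 34.1 and 25.7 CPM against 4.88 and 8.87 CPM. Stat2 and Irf9, whose products act together at the ISRE, had -1.03 ± 0.35 and -0.77 ± 0.35. Of 20 other genes induced by interferon-gamma, 17 lay lower without overlap, against the same 29.7%, 2 higher and 0 passed, with a median of -1.58. Those with the smallest p were Cxcl9, Tap1, Il18bp and Nos2, all lower, and Ido1, a tryptophan-degrading enzyme, which was higher. Ido1 had 0.131 and 0.295 CPM against 2.57 and 1.45 CPM. These were 3 and 7 counts against 71 and 33, so its MycCaP level was near the floor of 3 counts.

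For the machinery that GBPs and IRGs work with, counts are again of genes without overlap, where 29.7% of all genes lay lower and 28.9% higher. Of 16 inflammasome and pyroptosis genes, 12 lay lower, 0 higher and 0 passed, with a median log2 fold change of -1.03. In MycCaP-BMP4 the median of this list stood at 22.2% and 74.3% of the MycCaP mean, beside 19.1% and 78.0% for the pan-macrophage genes. Nlrp1b and Nlrc4, both inflammasome sensors, had -1.52 ± 0.54 and -1.59 ± 0.61, and Pycard, the adaptor ASC, had 89.1 and 68.1 CPM against 15.2 and 44.7 CPM. Autophagy conjugation genes, whose products guide the GTPases to vacuoles, had a median of -0.06, with 6 of 17 lower, near the share of all genes, and 2 higher. In this list and in the prenylation list no gene had an unadjusted p under 0.05 by edgeR. The ATG5 partner gene Atg12 had 61.5 and 52.7 CPM against 35.6 and 40.1 CPM. Of 9 ubiquitin and effector partners of the vacuole, 4 lay lower, 0 higher and 0 passed, with a median of -0.28; Rnf213, a giant ubiquitin ligase induced by interferon, had -0.96 ± 0.30. Of 8 genes of protein prenylation, the lipid modification that anchors some GBPs to membranes, 4 lay lower, 1 higher and 0 passed, with a median of -0.16.

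**Figure D5:**
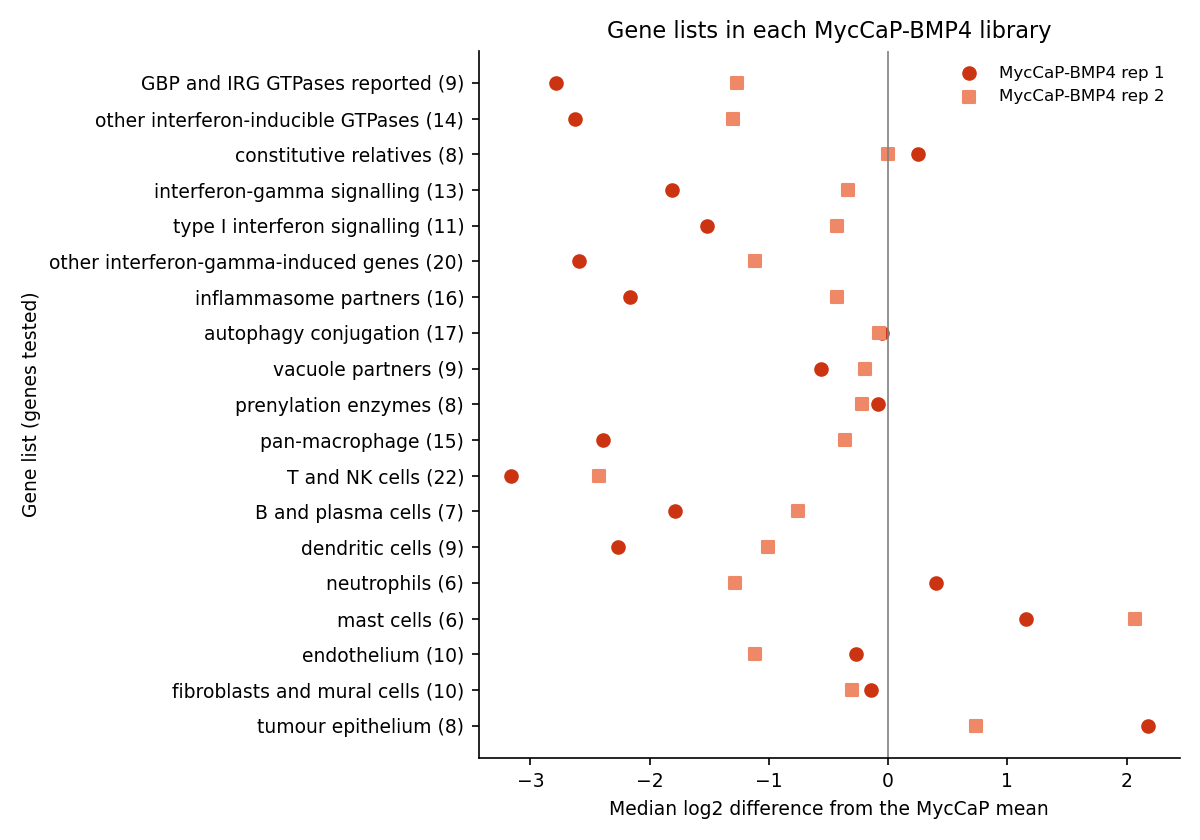
Each gene list's median log2 difference from its MycCaP mean in MycCaP-BMP4 replicate 1 (circles) and replicate 2 (squares), with the number of genes tested; the vertical line marks no difference. The GTPases and the other interferon-inducible GTPases lie left of the pan-macrophage genes in both replicates. The other interferon-gamma-induced genes and the T and NK cell genes do so as well. Autophagy and prenylation genes lie near 0 in both.

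Of the 8 nearest tested coding genes around the GBP and IRG regions, 2 (Kyat3 and Abcg3) lay lower without overlap, near the 29.7% of all genes. Beside the chromosome 3 cluster, Pdlim5 had a log2 fold change of 0.30 ± 0.25 and Kyat3 of -0.38 ± 0.37. Beside the chromosome 5 cluster, Lrrc8b had -0.15 ± 0.40, whereas Abcg3, 31432 bases from the cluster, had 41.7 and 54.3 CPM against 11.9 and 21.2 CPM, a log2 fold change of -1.54 ± 0.37. The nearest tested coding genes flanking the IRG genes were Trim7 (1.49 ± 0.58), Gm12185 (-0.23 ± 0.67; it shares 75-base words with Tgtp1 and Tgtp2), Mrpl22 (0.50 ± 0.36) and Zfp692 (1.47 ± 0.34). None of these 8 passed the test.

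Across the 4 libraries, the 5 genes nearest to the median GTPase profile, by Euclidean distance of log2 differences from the MycCaP mean among 8869 genes with a mean of at least 10 CPM in MycCaP, were Ccl5, Tifab, Milr1, Slfn5 and Ptger4. Ccl5, a chemokine gene, was nearest, with 47.2 and 53.7 CPM against 7.31 and 20.9 CPM.

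The calls changed when 1 MycCaP-BMP4 library was left out. Without MycCaP-BMP4 replicate 1, edgeR called 7 of the 9 lower, where 2.63% of all genes were called lower, and without replicate 2 it called 9 of 9, where 20.2% were; these fits take the spread from the MycCaP pair and do not tell whether a difference repeats. With no filter on low counts it called 7 of 9, against 1.49% of all genes, and with library size alone it called Gbp8 alone of the 9, against 0.128% of all genes.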

How the data were processed

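Per the labels' protocols, polyadenylated RNA of sorted macrophages was made into strand-specific libraries and sequenced in pairs. The authors deposited raw counts of reads per gene; the submitters' processing notes name HTSeq, STAR 2.6.0b, RSEM, Bowtie2 2.2.3 and GRCm38 (mm10), without roles. For annotation release and strand setting, nothing is given in the sources used here. Summary lines that name no gene (2.70% to 2.90% ambiguous, 3.37% to 6.03% outside genes, 8.01% to 10.6% not unique) were left out. Symbols were found for 37607 of 39179 identifiers. Exon lengths and coordinates are from GENCODE M21.

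Genes kept by filterByExpr (14075) were scaled with TMM and tested across all genes with edgeR 4.0.16 (quasi-likelihood F test, two-sided, no covariate, Benjamini-Hochberg adjusted p under 0.05). The same steps were also run on simulated counts with known fold changes. How many of those were called is not reported here, so the power with 2 libraries per group is not given. The SE of a log2 fold change was derived from this test, as its absolute value divided by the square root of the F statistic. DESeq2 1.42.0, limma-voom (limma 3.58.1), other scalings and filters, a replicate block and leaving out each library were alternatives. Replicates differed beyond sampling noise (chi-square per degree of freedom 43.2 and 279). The members, lists and tests were chosen with earlier results of these data known. Named are the 9 measured members, the receptor and signalling genes, the other GTPases, up to 5 further genes per list by smallest p, the 5 nearest profiles and, chosen by position, the nearest tested coding gene (no GBP or listed IRG) on each side of each region. The planned protein features were not computed, and some named genes are not reported here.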

Additional observations from a re-analysis of the deposited data

How the results depend on the processing

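Of 117 member values over 13 alternatives, 115 were negative. The other 2, both scaled on the pan-macrophage genes, turned positive: Irgm1 at 0.32 and Irgm2 at 0.0566; there the GTPase median was -0.65, and 923 genes were called in all but 0 members. Genes called numbered 0 in the reported fit, 65 with library size alone, 1109 with no filter and 1385 with DESeq2; members called numbered 1, 7 and 7. Leaving out 1 library gave 0 to 5753 genes called and 0 to 9 members. The lowest and highest GTPase medians over these were -2.75 and -1.27. The replicate numbers are not said to pair samples, and same-numbered deviations correlated at -0.15 across genes. With the replicate block, 2 genes and 0 members were called and the GTPase median was -2.01. With the numbers crossed, chosen after seeing the data, 689 genes and 6 members were called. The cause of these shifts was not tested. Depth limits Gbp8 in MycCaP-BMP4 (36 and 21 counts) and Ifng (0 and 1 counts).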

Other observations

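In the promoter windows of Igtp and Irgm2 the GAS lies 2 bases before the ISRE core, read along the gene. The GAS pattern reads the same on both strands, so its own strand is not defined. This arrangement was noticed in the matches and then searched in all windows. It occurred in 5 of 32851 windows (0.0152%). The 5 genes were Igtp, Irgm2, Tgtp1, Tgtp2 and Gm12185, all on chromosome 11, and the first 4 of them are on the GTPase lists used here. Gm12185 is not on these lists, but it overlaps Tgtp1 in exons and shares 75-base words with Tgtp1 and Tgtp2. Tgtp1 and Tgtp2 share 77.2% and 81.4% of their 75-base transcript words with other genes, so these are not independent occurrences. In Igtp and Irgm2 the motif pair lies in closely similar sequence, as the printed stretches show, so these are not independent occurrences either. The longest identical run of their windows, 61 bases, lies outside the motif pair.

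Mast cell genes were among the markers that lay higher: 5 of 6 tested were higher without overlap, as were 28.9% of all genes, and 1 was lower; 1 of the 6 had an unadjusted p under 0.05 by edgeR. Their summed level was 9.62 and 25.6 CPM against 33.3 and 60.4 CPM.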
